A study of Mus musculus with 2 samples.

Results

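Genes of 15 developmental transcription factors differed between Trrap-deleted and control mouse cortex, in a table of loci that the study's authors called significant. The genes were chosen by symbol. The table was searched for the SOX, forkhead, POU, LIM, nuclear receptor, bHLH and Id, Tcf, Krüppel-like, Zic, Sall, Tshz, Nfi, T-box, paired, sine oculis, Meis, Irx, Ebf, Etv and Mef2 families, with Sox4, Lhx6 and Lhx9 left out, and some of these families had no listed member. All 15 had a row of their own with a value above 0 in both libraries, among 2317 such rows and 2381 rows in all. RNA sequencing was done on embryonic cortex (stage E14.5) from mice on a B6/129 background, with 1 library per genotype. The Trrap-deleted library came from TrrapF/F NestinCre+ embryos, in which the Cre recombinase is driven by Nestin regulatory sequences in neural progenitors and their progeny, so cells outside the neural lineage are expected to keep the gene. The control library, entered as wild type, came from TrrapF/+ NestinCre+ embryos, so it carried the same Cre and 1 floxed allele. The Cre is expected to delete that allele in the neural lineage, so the control is expected to lack 1 copy of Trrap there. How many embryos went into each library is not stated in the labels. The series compared gene transcription between these genotypes to ask how histone acetylation through Trrap, a scaffold protein of histone acetyltransferase complexes, bears on cell cycle and fate in neural progenitors.

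Transcription factors of these families set the identity of cells in the embryonic cortex. Proneural basic helix-loop-helix (bHLH) proteins such as Neurog2 move a progenitor towards the neuronal fate by pairing with E proteins and binding short DNA motifs called E-boxes, while Id proteins take up E proteins in pairs that do not bind DNA. Members of the SOX and POU families act in young neurons, some of them in progenitors as well. Nuclear receptors couple transcription to hormones, the circadian clock or recent activity.

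As deposited, the Trrap-deleted cortex had 11 of the 15 genes higher and 4 lower. Over all 2317 rows 58.4% were higher and 41.6% lower, so the table as a whole also leaned upwards. The values are FPKM, fragment counts corrected for the length of the transcript and the size of the library, and the fold changes are Trrap-deleted over control. The higher genes were Tbx18, Nr3c1, Ebf4, Nr1d2, Pou3f4, Foxo1, Id2, Mef2a, Sox11, Pou3f3 and Neurog2. The lower ones were Six4, Nr4a3, Tcf3 and Neurod6. The median log2 fold change of the 15 was 0.47, beside 0.55 over all rows. In size the members' differences were modest, with a median of 1.64-fold in either direction, against 1.80-fold over all rows. At least 2-fold higher were 4 genes (26.7%), a share close to the 25.6% of all rows, and at least 2-fold lower was 1 gene (6.67%, against 13.3% of all rows). Every row had passed the authors' test, so the presence of a gene in the table is not a result about these families. With 1 library per genotype there is no replicate check, and in bulk tissue fewer cells of a type and less RNA per cell cannot be told apart.

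**Figure D1:**
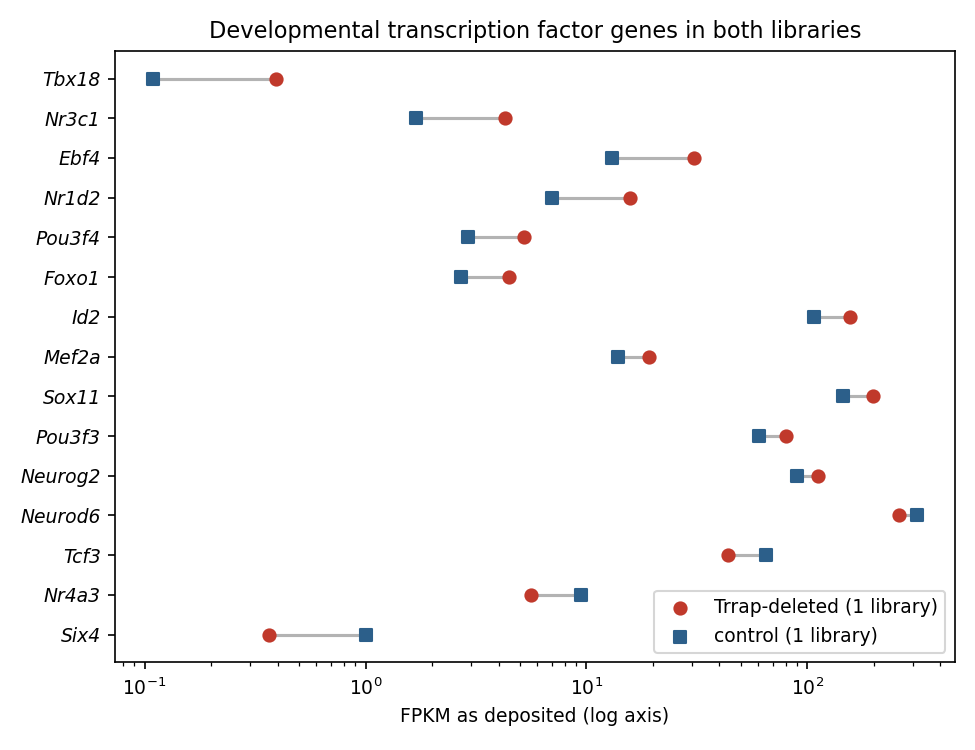
FPKM as deposited (log axis) of the 15 transcription factor genes, 1 row per gene, with a red circle for the Trrap-deleted library and a blue square for the control library, joined by a line. The genes run from Tbx18 (3.57-fold higher in the Trrap-deleted library) at the top to Six4 (2.75-fold lower) at the bottom, and Neurod6 and Neurog2 have the shortest lines; the direction of 6 genes depends on how the libraries are scaled.

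The direction of 9 genes was the same under each way of scaling the libraries that was tried, and that of the other 6 was not. Setting the median of all rows to 0 lowers every log2 fold change by 0.55, and equal summed FPKM raises every one by 0.35. Both shifts were computed from the listed rows alone, all of which had passed the authors' test. They therefore do not measure the true offset between the libraries, and show only which directions change with shifts of this size. Higher under all 3 scalings were Tbx18, Nr3c1, Ebf4, Nr1d2, Pou3f4 and Foxo1, and lower under all 3 were Six4, Nr4a3 and Tcf3. A shift shared by all rows leaves differences by level in place. Of 10 equal groups by mean FPKM, the lowest, with Tbx18 and Six4, had 81.0% of rows higher. Group 3 from the lowest had 73.6% higher, with a median log2 fold change of 0.86. Pou3f4 (0.84) and Foxo1 (0.71) lay below that median, and Nr3c1 (1.34) above it. With the median at 0, 6 of the 15 were higher and 9 lower, where 50.0% of all rows are higher and 50.0% lower by construction; at equal summed FPKM 12 were higher and 3 lower, against 59.0% and 41.0% of all rows. Id2, Mef2a, Sox11, Pou3f3 and Neurog2 were higher as deposited and lower once the median was set to 0, and Neurod6 was lower as deposited and higher at equal summed FPKM. None of these 6 differed by more than 1.46-fold as deposited.

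**Figure D2:**
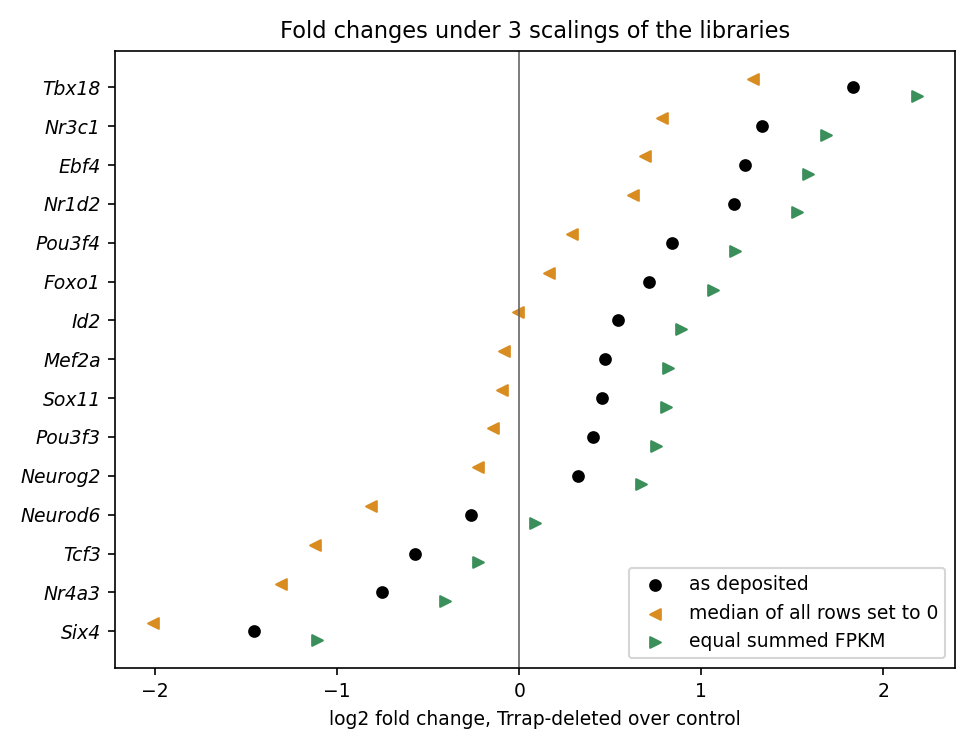
Log2 fold change, Trrap-deleted over control, of the 15 genes as deposited (black circles), with the median of all 2317 rows set to 0 (orange triangles) and with equal summed FPKM in both libraries (green triangles). The 3 symbols of Id2, Mef2a, Sox11, Pou3f3, Neurog2 and Neurod6 fall on both sides of 0, and those of the other 9 genes fall on one side.

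Among the bHLH genes the early factor and the late factor of the projection neuron lineage differed in opposite directions as deposited, whereas both were lower with the median set to 0 and both higher at equal summed FPKM. Neurog2, which commits cortical progenitors to the glutamatergic neuron fate (mm9 chromosome 3, 127328062 to 127338650), had 112.1 FPKM in the Trrap-deleted cortex and 89.6 FPKM in the control, a log2 fold change of 0.32 as deposited that became -0.23 with the median set to 0 (q = 0.0388 in the authors' deposited table). Neurod6, a bHLH gene of postmitotic cortical projection neurons (chromosome 6, 55627651 to 55632354), had 259.9 FPKM in the Trrap-deleted cortex and 312.1 FPKM in the control, a log2 fold change of -0.26 that became 0.084 at equal summed FPKM (q = 0.0318 in the authors' deposited table). Neurod6 was the most abundant of the 15 genes and had the smallest decrease of the 965 rows that were lower. The ratio of Neurog2 to Neurod6, which does not depend on the scaling of the libraries, was 0.431 in the Trrap-deleted cortex and 0.287 in the control. This ratio carries an uncertainty of its own, because the Neurog2 locus in the table is 10589 bases long and the annotated gene 2497 bases.

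One listed partner gene of these factors was lower, and one listed antagonist gene was higher as deposited but not with the median set to 0. Of 14 annotated protein-coding Tcf symbols only Tcf3 was listed. Of 24 bHLH and Id symbols of the pattern, 3 were listed, namely Id2, Neurog2 and Neurod6, so these values do not cover all such partners and antagonists. Tcf3, the gene of the E proteins E12 and E47 (chromosome 10, 79872069 to 79896726), had 43.6 FPKM in the Trrap-deleted cortex and 64.9 FPKM in the control, 1.49-fold lower (q = 0.0485 in the authors' deposited table, close to their threshold of 0.05). Id2, whose product lacks the DNA-binding region and pairs with E proteins (chromosome 12, 25778666 to 25780957), had 156.6 FPKM in the Trrap-deleted cortex and 107.5 FPKM in the control, a log2 fold change of 0.54 that became -0.0077 with the median set to 0 (q = 4.62e-05 in the authors' deposited table). The ratio of Id2 to Tcf3 was 3.59 in the Trrap-deleted cortex and 1.66 in the control, 2.17 times as high under any scaling by 1 factor per library. A correction that varied with level could change it. The ratio of Neurog2 to Tcf3 was likewise higher, with 2.57 in the Trrap-deleted cortex and 1.38 in the control. These are ratios of FPKM within 1 library each and say nothing of protein levels.

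The 250 bases before the annotated start of these 4 bHLH genes are shown because bHLH factors bind E-boxes. They come from RefSeq on GRCm38.p6, a later build than the mm9 of the table, and run 5′ to 3′ on the strand of the gene. Capitals mark the E-box motif CANNTG, which reads as CANNTG on both strands, found by a script.

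Neurog2: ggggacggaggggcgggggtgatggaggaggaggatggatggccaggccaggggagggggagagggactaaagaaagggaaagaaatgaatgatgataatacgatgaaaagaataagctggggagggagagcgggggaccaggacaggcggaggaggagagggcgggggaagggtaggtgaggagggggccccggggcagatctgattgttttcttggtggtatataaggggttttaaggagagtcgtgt
Neurod6: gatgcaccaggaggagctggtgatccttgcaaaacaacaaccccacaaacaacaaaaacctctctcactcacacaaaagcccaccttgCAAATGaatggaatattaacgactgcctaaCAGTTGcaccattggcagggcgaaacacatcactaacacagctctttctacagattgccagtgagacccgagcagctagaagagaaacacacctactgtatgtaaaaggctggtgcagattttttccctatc
Tcf3: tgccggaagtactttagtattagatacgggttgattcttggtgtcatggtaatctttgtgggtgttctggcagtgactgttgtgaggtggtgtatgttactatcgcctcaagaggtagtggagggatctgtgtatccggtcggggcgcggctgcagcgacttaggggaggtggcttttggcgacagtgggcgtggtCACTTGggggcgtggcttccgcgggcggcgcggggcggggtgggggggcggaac
Id2: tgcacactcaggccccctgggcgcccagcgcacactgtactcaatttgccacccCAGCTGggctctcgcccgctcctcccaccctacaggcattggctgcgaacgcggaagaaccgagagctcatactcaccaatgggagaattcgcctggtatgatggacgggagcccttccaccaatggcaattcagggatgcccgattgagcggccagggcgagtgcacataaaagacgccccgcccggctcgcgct

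The windows lie at chr3:127632886-127633135 on the plus strand for Neurog2, and on the minus strand at chr6:55681264-55681513 for Neurod6, chr10:80433636-80433885 for Tcf3 and chr12:25096093-25096342 for Id2. Neurod6 held 2 matches, starting 162 and 132 bases before the annotated start, Tcf3 held 1 at 54 bases and Id2 held 1 at 196 bases. The match of Id2 reads CAGCTG, a form found in 13.0% of the 32851 windows of all genes. No CANNTG stood in the Neurog2 window. RefSeq windows were found for 14 of the 15 genes, and in the first listed window of each, 7 of 14 held CANNTG, while 66.2% of all windows did. The form CAGATG, or CATCTG on the other strand, was in the Tbx18 window alone among the 14 and in 14.4% of all windows. A match of 6 letters is a description and not a binding site.

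Genes of the SOX and POU families were abundant and higher as deposited, apart from Pou3f4, which was higher but not abundant; Sox11 and Pou3f3 became lower with the median set to 0. Sox11, a SOXC factor that turns on neuronal genes in differentiating cells (chromosome 12, 28019131 to 28027651), had 198.2 FPKM in the Trrap-deleted cortex and 144.5 FPKM in the control, a log2 fold change of 0.46 as deposited and -0.095 with the median set to 0 (q = 0.000241 in the authors' deposited table). Relative to Neurod6, Sox11 stood at 0.762 in the Trrap-deleted cortex and 0.463 in the control, 1.65 times as high. Pou3f3, also known as Brn1, a POU homeobox gene of cortical progenitors and upper-layer neurons (chromosome 1, 42704743 to 42797813), had 80.3 FPKM in the Trrap-deleted cortex and 60.6 FPKM in the control, a log2 fold change of 0.41 that became -0.15 with the median set to 0. Its locus in the table spans 93071 bases, 12.6 times the annotated gene, so the Pou3f3 value may hold reads of neighbouring transcripts and is uncertain. Pou3f4, the related Brn4 gene, known from striatal precursors and the inner ear (X chromosome, 108009719 to 108013467), had 5.21 FPKM in the Trrap-deleted cortex and 2.91 FPKM in the control, 1.79-fold higher and higher under all 3 scalings (q = 0.0325 in the authors' deposited table). Pou3f3 was thus 15.4 times as high as Pou3f4 in the Trrap-deleted cortex and 20.8 times as high in the control.

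Mef2a and Foxo1, whose products respond to activity and to insulin signalling, were both higher as deposited, Mef2a only while the median of all rows was not set to 0. Mef2a, a MADS-box factor of differentiating neurons and muscle (chromosome 7, 74375588 to 74517753), had 19.2 FPKM in the Trrap-deleted cortex and 13.9 FPKM in the control, a log2 fold change of 0.47 that became -0.082 with the median set to 0. Foxo1, a forkhead factor held out of the nucleus by insulin and Akt signalling (chromosome 3, 52072259 to 52154031), had 4.44 FPKM in the Trrap-deleted cortex and 2.71 FPKM in the control, 1.64-fold higher and still 0.16 higher on the log2 scale with the median set to 0 (q = 0.00437 in the authors' deposited table). The sources used here do not say whether counting used strand, and both genes overlap a gene on the opposite strand in GENCODE M21, Lysmd4 for Mef2a and Gm20402 for Foxo1, so their reads may not have been told apart.

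Of the 3 nuclear receptor genes, Nr3c1 and Nr1d2 were higher and Nr4a3 was lower. Nr3c1, the glucocorticoid receptor gene (chromosome 18, 39570199 to 39650955), had 4.27 FPKM in the Trrap-deleted cortex and 1.69 FPKM in the control, 2.53-fold higher (q = 2.33e-05 in the authors' deposited table). Nr1d2, which encodes the circadian repressor REV-ERB beta (chromosome 14, 19036568 to 19071641), had 15.7 FPKM in the Trrap-deleted cortex and 6.95 FPKM in the control, 2.26-fold higher (q = 0.00951 in the authors' deposited table). Nr4a3, or Nor1, an orphan receptor gene induced rapidly by neuronal activity and other stimuli (chromosome 4, 48058025 to 48099319), had 5.62 FPKM in the Trrap-deleted cortex and 9.48 FPKM in the control, 1.69-fold lower (q = 0.00924 in the authors' deposited table). All 3 kept their direction under the other scalings. The order of the receptors differed between the libraries: Nr1d2 stood at 2.80 times Nr4a3 in the Trrap-deleted cortex and at 0.733 times Nr4a3 in the control, a 3.82-fold difference in the ratio. Nr3c1 stood at 0.760 times Nr4a3 in the Trrap-deleted cortex and at 0.178 times in the control. Of 27 annotated protein-coding genes with these receptor symbols, these 3 were listed.

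Ebf4 had the largest increase among the members with at least 10 FPKM. Ebf4, of the early B-cell factor family of helix-loop-helix proteins (chromosome 2, 130120905 to 130197500), had 30.7 FPKM in the Trrap-deleted cortex and 13.0 FPKM in the control, 2.36-fold higher, with a q listed at 0 in the authors' deposited table. It was the only one of the 4 annotated Ebf genes in the table.

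The largest differences on either side were in genes near the lower end of the measured range. Tbx18, a T-box gene of embryonic mesenchyme and of mural cells around vessels (chromosome 9, 87597635 to 87626095), had 0.391 FPKM in the Trrap-deleted cortex and 0.110 FPKM in the control, 3.57-fold higher (q = 0.00195 in the authors' deposited table). Tbx18 too overlaps an annotated gene on the opposite strand, D030062O11Rik, whose reads may not have been told apart. Six4, a sine oculis homeobox gene known from muscle and sensory precursors (chromosome 12, 74200596 to 74215024), had 0.364 FPKM in the Trrap-deleted cortex and 1.00 FPKM in the control, 2.75-fold lower (q = 0.0108 in the authors' deposited table). With a pseudocount of 1 FPKM these came to log2 fold changes of 0.33 for Tbx18 and -0.55 for Six4, under 2-fold each. Most listed markers of non-neural cells were higher too. Of 17 meningeal and mesenchymal markers, 7 were listed and 6 of them, Tbx18 itself included, were higher. All 6 were at least 2-fold higher, as were 25.6% of all rows, and the median log2 fold change of the 7 was 2.89. The summed level of the 7 was 28.0 FPKM in the Trrap-deleted cortex and 22.6 FPKM in the control. Fn1, which was lower, made up the largest part of that sum in both libraries. Over all rows 58.4% were higher, and in the 3 lowest of 10 equal groups by mean FPKM 73.6% to 81.0% were. The collagen gene Col1a2 had 2.50 FPKM in the Trrap-deleted cortex and 0.210 FPKM in the control, Fn1 was the listed exception with 12.2 FPKM in the Trrap-deleted cortex and 19.9 FPKM in the control, and none was listed at 0. Of 18 endothelial and pericyte markers, Pdgfrb, with 3.60 FPKM in the Trrap-deleted cortex and 1.71 FPKM in the control, and Cspg4 were listed, both higher, with a summed level of 4.24 FPKM in the Trrap-deleted cortex and 2.07 FPKM in the control. The part of these cells in the Tbx18 value was not tested.

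Most of the abundant members were higher as deposited, while most abundant rows of the table were lower. In the 464 rows with the highest mean FPKM, the top 2 of 10 equal groups beginning at 51.5 FPKM, 28.0% were higher in the Trrap-deleted cortex, whereas 4 of the 6 members among them were higher: Sox11, Id2, Neurog2 and Pou3f3. Their companions Neurod6 and Tcf3 were lower. With the median set to 0, 0 of the 6 and 16.4% of the 464 rows were higher, and at equal summed FPKM 5 of the 6 and 30.8% were. This comparison was chosen after the values were seen and has no test. Among the 1352 rows that were higher, ordered from the largest increase down, Id2 stood at rank 1168, Sox11 at rank 1269, Pou3f3 at rank 1311 and Neurog2 at rank 1349. Summed over the 15 genes, the level was 936.6 FPKM in the Trrap-deleted cortex and 830.8 FPKM in the control, a ratio of 1.13, while over all 2317 rows that ratio was 0.786.

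**Figure D3:**
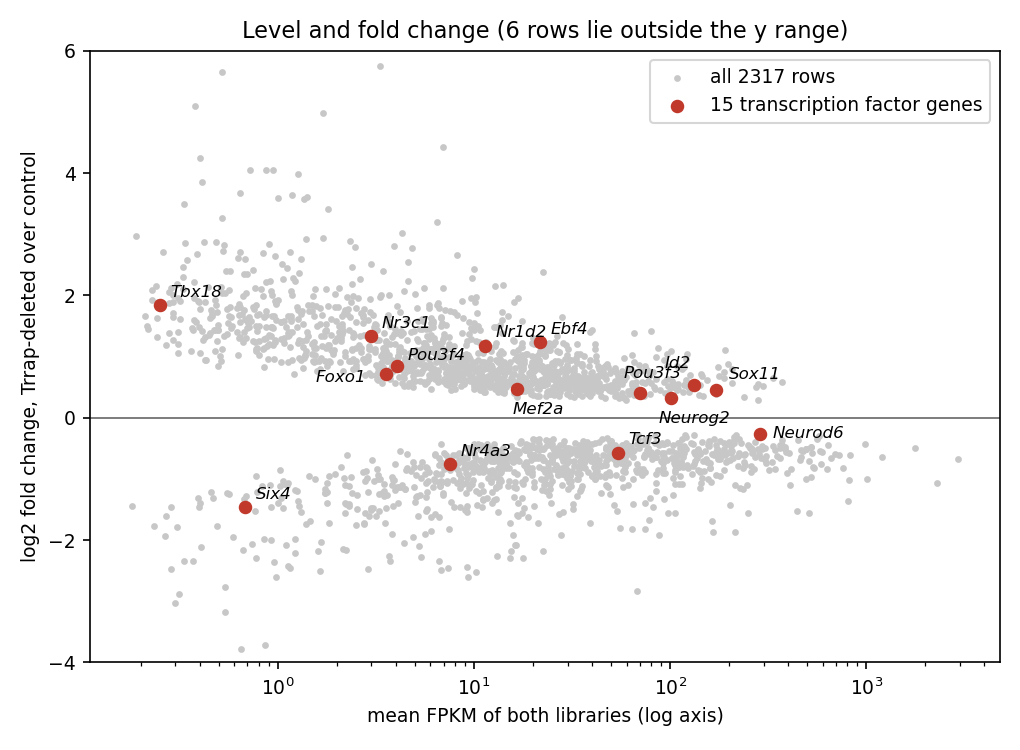
Log2 fold change, Trrap-deleted over control, against the mean FPKM of both libraries (log axis) for all 2317 rows (grey) and the 15 transcription factor genes (red, labelled); 6 rows lie outside the y range. The band around 0 is empty because the table holds only significant loci, and Neurog2 and Neurod6 lie at its edges; with the median set to 0, Id2, Mef2a, Sox11, Pou3f3 and Neurog2 would fall below 0, and at equal summed FPKM Neurod6 would rise above it.

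Of 251 protein-coding symbols in GENCODE M21 that match the family pattern, 18 were in the table (7.17%), beside 8.57% of all protein-coding symbols. Both shares rest on symbols matched by name. Among the 2317 rows 1879 protein-coding symbols were found, and rows under older names are missed, so the 8.57% may be too low. The 3 of these left out of the set were Sox4, with 225.4 FPKM in the Trrap-deleted cortex and 126.6 FPKM in the control, Lhx6, with 1.71 FPKM in the Trrap-deleted cortex and 7.06 FPKM in the control, and Lhx9, with 4.72 FPKM in the Trrap-deleted cortex and 13.7 FPKM in the control. None of the 29 Krüppel-like, Zic, Sall and Tshz genes, the 4 Nfi genes or the 6 Etv genes was listed. A gene that is not listed missed the authors' threshold, was not expressed or may stand under another symbol, and it cannot be called equal in both libraries.

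Related regulators outside the family pattern were mostly lower where they were listed. Of 166 symbols in 6 textbook lists, 25 were listed, 9 higher and 16 lower (64% lower, beside 41.6% of all rows). Their median log2 fold change was -0.52. Of 19 other bHLH genes 5 were listed. Atoh8, with 1.22 FPKM in the Trrap-deleted cortex and 0.539 FPKM in the control, was higher. The Notch effectors Hey1, with 17.5 FPKM in the Trrap-deleted cortex and 25.3 FPKM in the control, and Hey2, with 1.60 FPKM in the Trrap-deleted cortex and 4.48 FPKM in the control, were lower, as were Nhlh2 and Olig2. Of 23 Notch pathway genes 3 were listed. Rbpj, the DNA-binding partner of activated Notch, had 26.3 FPKM in the Trrap-deleted cortex and 37.7 FPKM in the control, Dtx4 was lower too, and the ligand gene Jag2 was higher with 5.49 FPKM in the Trrap-deleted cortex and 2.73 FPKM in the control.

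All 5 listed genes among 36 symbols of cortical layer and projection neuron regulators were lower. The lists count symbols, and some genes stand in them under more than 1 name. The deep-layer genes Fezf2 and Bcl11b stood on the same side as Neurod6. Fezf2 had 42.5 FPKM in the Trrap-deleted cortex and 55.9 FPKM in the control, and Bcl11b had 28.0 FPKM in the Trrap-deleted cortex and 37.3 FPKM in the control; both remained lower under each scaling, with log2 fold changes of -0.048 for Fezf2 and -0.063 for Bcl11b at equal summed FPKM. Scrt2, a repressor of newborn neurons, had 17.5 FPKM in the Trrap-deleted cortex and 46.3 FPKM in the control, 2.65-fold lower. Prox1 had 0.793 FPKM in the Trrap-deleted cortex and 3.53 FPKM in the control, and Nhlh2 was the other listed gene. Of 22 symbols of ventral telencephalon regulators, 5 were listed and 4 were lower, while Zfhx3 was higher. Among the lower ones, Dlx2 had 0.358 FPKM in the Trrap-deleted cortex and 1.95 FPKM in the control.

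Of 33 cofactors and further receptors 5 were listed, 4 of them higher. The receptor genes Thrb, for thyroid hormone, Esrrg and Ppara were each below 1 FPKM in both libraries and higher in the Trrap-deleted cortex, with 0.972 FPKM for Thrb there and 0.368 FPKM in the control. The nuclear receptor coactivator gene Ncoa1 had 24.1 FPKM in the Trrap-deleted cortex and 14.9 FPKM in the control. Ldb1, the cofactor that joins LIM homeodomain proteins into complexes, had 99.03 FPKM in the Trrap-deleted cortex and 141.9 FPKM in the control, lower under each scaling. Of 37 other homeobox genes 5 were listed: Pbx3, Zfhx2 and Zfhx3 were higher, and the TGIF repressor genes Tgif1, with 2.20 FPKM in the Trrap-deleted cortex and 11.1 FPKM in the control, and Tgif2, with 18.4 FPKM in the Trrap-deleted cortex and 32.8 FPKM in the control, were lower.

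**Figure D4:**
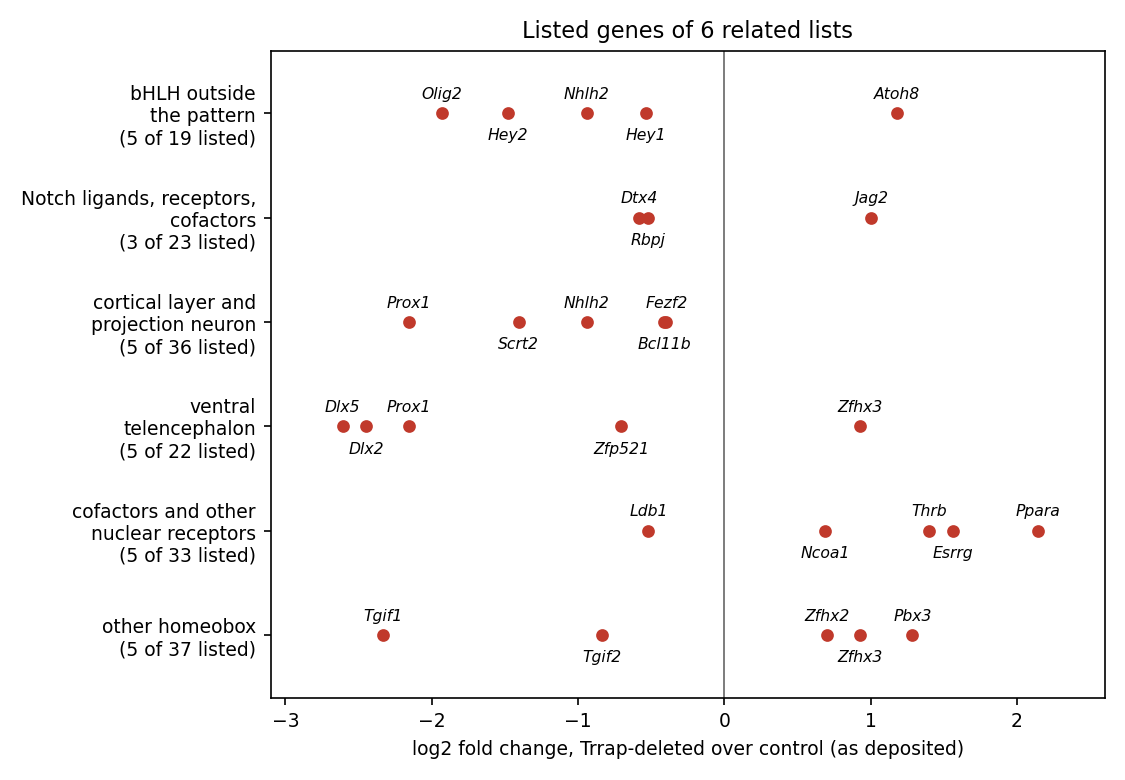
Log2 fold change, Trrap-deleted over control, as deposited, of the listed genes in 6 textbook lists of regulators outside the family pattern, 1 point per gene; Nhlh2, Prox1 and Zfhx3 stand in 2 lists each. The listed cortical layer and projection neuron genes all lie below 0, and the directions shown were the same under the other 2 scalings.

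Of 17 markers of cortical tissue, Neurod6, Fezf2 and Bcl11b were listed and abundant in both libraries, and the remaining 14 were not listed, so the tissue could be checked on 3 genes only. Trrap itself was not listed. Markers of other cells differed between the same libraries: 9 of 18 microglial markers were listed, all higher, with a summed level of 37.1 FPKM in the Trrap-deleted cortex and 14.4 FPKM in the control. All 9 were at least 2-fold higher, as were 25.6% of all rows. Over all rows 58.4% were higher and 41.6% lower. In the 4 lowest of 10 equal groups by mean FPKM, where these 9 lie, 68.1% to 81.0% were higher. Of 13 genes taken as markers of oligodendrocytes and astrocytes, 5 of 6 listed were higher and Olig2 was lower. The highest of the 5 by level was Slc1a3, with 55.1 FPKM in the Trrap-deleted cortex and 30.7 FPKM in the control. The largest increase of the 5 was that of Aldh1l1, with 11.7 FPKM in the Trrap-deleted cortex and 1.27 FPKM in the control. These values do not show in which cells the genes were expressed, and the part of glia in them was not tested. Of 10 markers of the choroid plexus and cortical hem, Ttr was higher and Wnt8b and Rspo2 were lower. Of 12 ventral telencephalic and interneuron markers, 3 were listed, all lower. The Y-linked gene Eif2s3y had 32.8 FPKM in the Trrap-deleted cortex and 0.111 FPKM in the control, and Xist had 142.0 FPKM in the Trrap-deleted cortex and 313.4 FPKM in the control, so sex-linked transcripts differed as well. The Trrap-deleted library thus held both Y-linked and Xist transcripts, and the control held Xist with almost no transcript of the listed Y-linked genes. The part of sex and of these cell markers in the values of the 15 genes, X-linked Pou3f4 included, was not tested. Genotype, sex and cell makeup cannot be told apart with 1 library each.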

How the data were processed

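RNA sequencing covered 1 Trrap-deleted and 1 control library. Per the labels' protocols, total RNA from cortex went into a TruSeq RNA library. The submitters' processing notes name TopHat2 and mm9; the sources used here do not name the counting and testing program. The single table has Cuffdiff's column layout, and its value columns were read as FPKM as deposited by the authors, since the header writes no unit. The p-values and q-values are the authors' deposited values. The table holds only rows marked significant, with a highest q of 0.0500. The deposited log2 fold changes matched log2 of Trrap-deleted over control to within 1.18e-05. No read total was at hand, so depth is unknown and no counting interval was set.

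Members were found by symbol and every one of them is named, by the rule for named genes. From other lists, genes with a row of their own could be named; 3 genes of these lists are not reported here. The members, lists and tests were chosen with earlier results of these data known. No filter on low values or pseudocount was used, and 2-fold was the size threshold. With 1 library per genotype no test was run. Alternatives were 2 rescalings, a pseudocount of 1 FPKM, minimums of 1 and 5 FPKM, q under 0.01 and a 1.5-fold threshold. Coordinates are those of the table, on mm9, with starts moved to counting from 1. GENCODE M21, on another build, was matched by symbol for lengths and overlaps (15 of 15 members). E-box motifs were searched on both strands of RefSeq promoter windows. Counting was tested on simulated data (Python 3.11.15, pandas 2.3.3, numpy 2.4.6, matplotlib 3.10.9).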

Additional observations from a re-analysis of the deposited data

How the results depend on the processing

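No paired analysis was possible because each genotype had 1 library, and no library could be left out. With the median of all rows set to 0, 6 members were higher and 9 lower, 1 was at least 2-fold higher and 3 at least 2-fold lower (10.9% and 37.6% of all rows), and the median log2 fold change of the members was -0.082 in place of 0.47. Under that scaling Id2 stood at -0.0077, Mef2a at -0.082, Sox11 at -0.095, Pou3f3 at -0.15 and Neurog2 at -0.23. At equal summed FPKM the members' median was 0.82 and Neurod6 stood at 0.084. With a pseudocount of 1 FPKM, 2 members were at least 2-fold higher and 0 at least 2-fold lower (10.5% and 7.77% of all rows), and with a minimum of 5 FPKM also 2 and 0 (13.4% and 11.6%). At a q under 0.01, 8 members were left, 7 higher and 1 lower (58.7% and 41.3% of 1511 rows), with a median of 0.95 beside 0.61 over those rows, and 0 were at least 2-fold lower (15.4%). At a threshold of 1.5-fold, 6 members passed higher and 2 lower (47.4% and 31.1% of all rows). Without Pou3f3 and Neurog2, whose loci are over 3 times as long as the annotated genes, a setting chosen after seeing the data, 9 members were higher and 4 lower. All members belonged to the named families, so leaving out others changed nothing.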

Other observations

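Where on the chromosome the 15 genes lie, the nearest listed row shared the member's direction, as deposited, for 8 of 15. The same share over all rows was not worked out, and 58.4% of all rows were higher, so this count is no result about position. The pairs below are given as a description. Nr1d2 lies 165965 bases from Thrb on chromosome 14, and both nuclear receptor genes were higher. Ebf4 lies 44441 bases from Fam113a, which had 16.5 FPKM in the Trrap-deleted cortex and 10.7 FPKM in the control. Tcf3 lies 2493 bases from Uqcr11, which differed the opposite way, with 95.8 FPKM in the Trrap-deleted cortex and 64.7 FPKM in the control. Id2 lies 379654 bases from Rrm2, a ribonucleotide reductase gene with 29.8 FPKM in the Trrap-deleted cortex and 63.9 FPKM in the control.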
